A study of Canis lupus familiaris with 6 samples.

Results

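The integrins, laminins and tetraspanins of canine mammary tumor cells were read from a 2-color microarray study of contact-free co-culture with myeloid-derived suppressor cells (MDSCs). Members were all non-control probes whose gene name in the scanner output is an integrin alpha or beta chain, a laminin alpha, beta or gamma chain, a numbered tetraspanin (TSPAN), or one of the tetraspanins CD9, CD63, CD81, CD82 and CD151. The rule found 90 probes for 54 genes among 43603 non-control probes with 13685 gene symbols. These were 34 probes for 23 integrin genes, 19 probes for 8 laminin genes and 37 probes for 23 tetraspanin genes.

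RNA came from 3 established dog lines, of which P114 derives from an anaplastic cancer, CMT-U27 from a simple carcinoma and CMT-U309 from a spindle cell mammary tumor. Each was grown either in monoculture or with MDSCs of healthy dogs in a transwell insert. The labels give 72 h of co-culture and the methods 48 h. The labels name no transgene or deletion, and nothing in them separates clones of a line. Each line was hybridized on 2 arrays with the dyes exchanged, so 6 arrays with 12 channels held 6 RNA samples. Each line lay on a slide of its own, so line and slide cannot be told apart in any comparison of levels. MDSCs were placed in the insert, and no array was hybridized with RNA of MDSCs alone.

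Integrins are cell-surface receptors made of an alpha and a beta chain, and the pairing decides which matrix protein is bound. Laminins are trimers of an alpha, a beta and a gamma chain that build basement membranes, the sheet on which mammary epithelium rests. Tetraspanins are small membrane proteins that hold integrins and other partners in membrane domains, and several are enriched in exosomes.

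Some properties of the arrays come before any result. The log2 ratios of co-culture over monoculture on the first P114 array (co-culture RNA in Cy5) correlated with those of its own dye-swap at r = -0.39 over 40699 probes, whereas the dye-swap of CMT-U27 gave 0.26 and that of CMT-U309 gave -0.09. Against the arrays of the other lines, the first P114 array gave r between -0.51 and 0.03, and it stood apart in this way. For levels, monoculture and co-culture RNA of a line, read from the same arrays, correlated between 0.985 and 0.993 over 40873 probes. RNA of different lines correlated between 0.897 and 0.949. Levels also carry the differences between probes, so these values cannot be set against those of the ratios. Over all probes tested, the median log2 difference in level was 0.15 for P114 over CMT-U27, 0.15 for P114 over CMT-U309 and 0.04 for CMT-U27 over CMT-U309. Without scaling these medians moved to -0.30, -0.63 and -0.28, and all level differences are relative to them.

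The labelled tumor types were compared with markers. Of 10 epithelial markers found, 8 were lower in P114 than in CMT-U27. Against CMT-U309, 8 were higher and 1 was lower in CMT-U27. The lower one was KRT14, at 10.85 and 11.26 in CMT-U27 beside 12.40 and 12.77 in CMT-U309. Of 10 mesenchymal markers found, 8 were higher in P114 than in CMT-U27 and 8 were lower in CMT-U27 than in CMT-U309. Between P114 and CMT-U309, 4 epithelial markers were higher and 1 was lower in P114, and 1 mesenchymal marker was higher and 2 were lower. These calls follow the rule given below for levels. Of all probes, 24.2% were called for P114 over CMT-U27, 28.9% for CMT-U27 over CMT-U309 and 14.5% for P114 over CMT-U309. EPCAM, an epithelial adhesion molecule, had levels of 15.58 and 15.27 in CMT-U27 and 6.28 to 9.32 elsewhere, and VIM, the mesenchymal filament vimentin, had 10.13 and 10.26 in CMT-U27 and 16.23 to 16.99 elsewhere. CMT-U27 thus carried most of the epithelial marker set, and the spindle cell line and the anaplastic line carried most of the mesenchymal set.

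Array probes of 60 bases carry the level results, and 7 of them are printed, from genes with large differences between lines or disagreements between probes. The printed LAMA4 probe is not its brightest, which gave the LAMA4 levels below. All were copied from the scanner output and lie on the minus strand of the canFam2 genome. Each has at least 1 reading frame free of stop codons, apart from a stop codon as its last triplet in the first LAMB3 probe, where TGA is in capitals.
LAMA4, chr12:71578195-71578254: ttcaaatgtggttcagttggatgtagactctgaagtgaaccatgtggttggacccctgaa
LAMB3 first probe, chr7:11229980-11230039: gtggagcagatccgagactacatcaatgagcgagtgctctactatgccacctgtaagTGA
LAMB3 middle probe, chr7:11239853-11240043: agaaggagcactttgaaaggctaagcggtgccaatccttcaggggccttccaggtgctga
LAMB3 dimmest probe, chr7:11254896-11255480: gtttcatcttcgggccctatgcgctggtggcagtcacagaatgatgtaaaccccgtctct
ITGB6, chr36:8846611-8846670: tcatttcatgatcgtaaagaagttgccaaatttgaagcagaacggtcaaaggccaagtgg
ITGA11, chr30:35316573-35317278: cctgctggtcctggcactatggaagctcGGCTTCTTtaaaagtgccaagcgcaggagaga
TSPAN8, chr10:15788696-15788755: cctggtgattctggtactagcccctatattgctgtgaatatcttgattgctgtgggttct

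The middle and the dimmest LAMB3 probe lie 9.81 and 24.9 kb from the first, and these 2 and the ITGA11 probe span 191, 585 and 706 bases of genome, so they cross introns. Capitals in the ITGA11 probe mark GGNTTNTT, letters that fall in the stretch encoding the membrane-proximal motif shared by integrin alpha tails. Searched on both strands, these letters were present in 5 of 23 integrin alpha probes (21.7%) and in 4.67% of all 43603 probes, and this is a description of the printed windows alone.

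At the level of detection, 57 of the 90 probes were well above background in all 12 channels, 25 in some and 8 in none. Taken by the brightest probe of each gene, 34 of 54 genes were detected in every channel, and 5 genes, ITGA8, ITGAD, ITGAM, LAMB4 and TSPAN32, in none. In each line, 7 of the 54 genes had no channel above background. After the intensity filter 87 probes of 53 genes were tested, since LAMB4 and 2 of 4 ITGAM probes were removed. In bulk RNA, fewer cells of a type and less RNA per cell cannot be told apart.

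Levels differed between the lines for a large share of the members. A probe was called when limma gave an adjusted p under 0.05 and the fold was over 2. For P114 over CMT-U27, 31 member probes were higher and 12 lower, 49.4% of 87, beside 24.2% of all probes tested (11.6% higher and 12.6% lower). Integrins gave 16 of the higher calls among 32 probes, laminins 6 of 18 and tetraspanins 9 of 37. The median member difference was 0.59 on the log2 scale.

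For P114 over CMT-U309, 21 member probes were higher and 18 lower, 44.8% of 87, beside 14.5% of all probes (7.69% higher and 6.85% lower). For CMT-U27 over CMT-U309, 18 were higher and 28 lower, 52.9% of 87, beside 28.9% of all probes (15.7% higher and 13.3% lower). The median member differences were 0.34 and -0.19. The 3 comparisons share lines, so their calls are given side by side and not combined. All p-values rest on 2 RNA samples per line, monoculture and co-culture, and measure the spread between these samples only. Without scaling, the higher and lower calls became 22 and 18 for P114 over CMT-U27, 8 and 26 for P114 over CMT-U309, and 12 and 31 for CMT-U27 over CMT-U309. The shares of all probes then were 5.88% higher and 22.1% lower, 2.03% and 26.5%, and 10.4% and 19.9%.

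**Figure D1:**
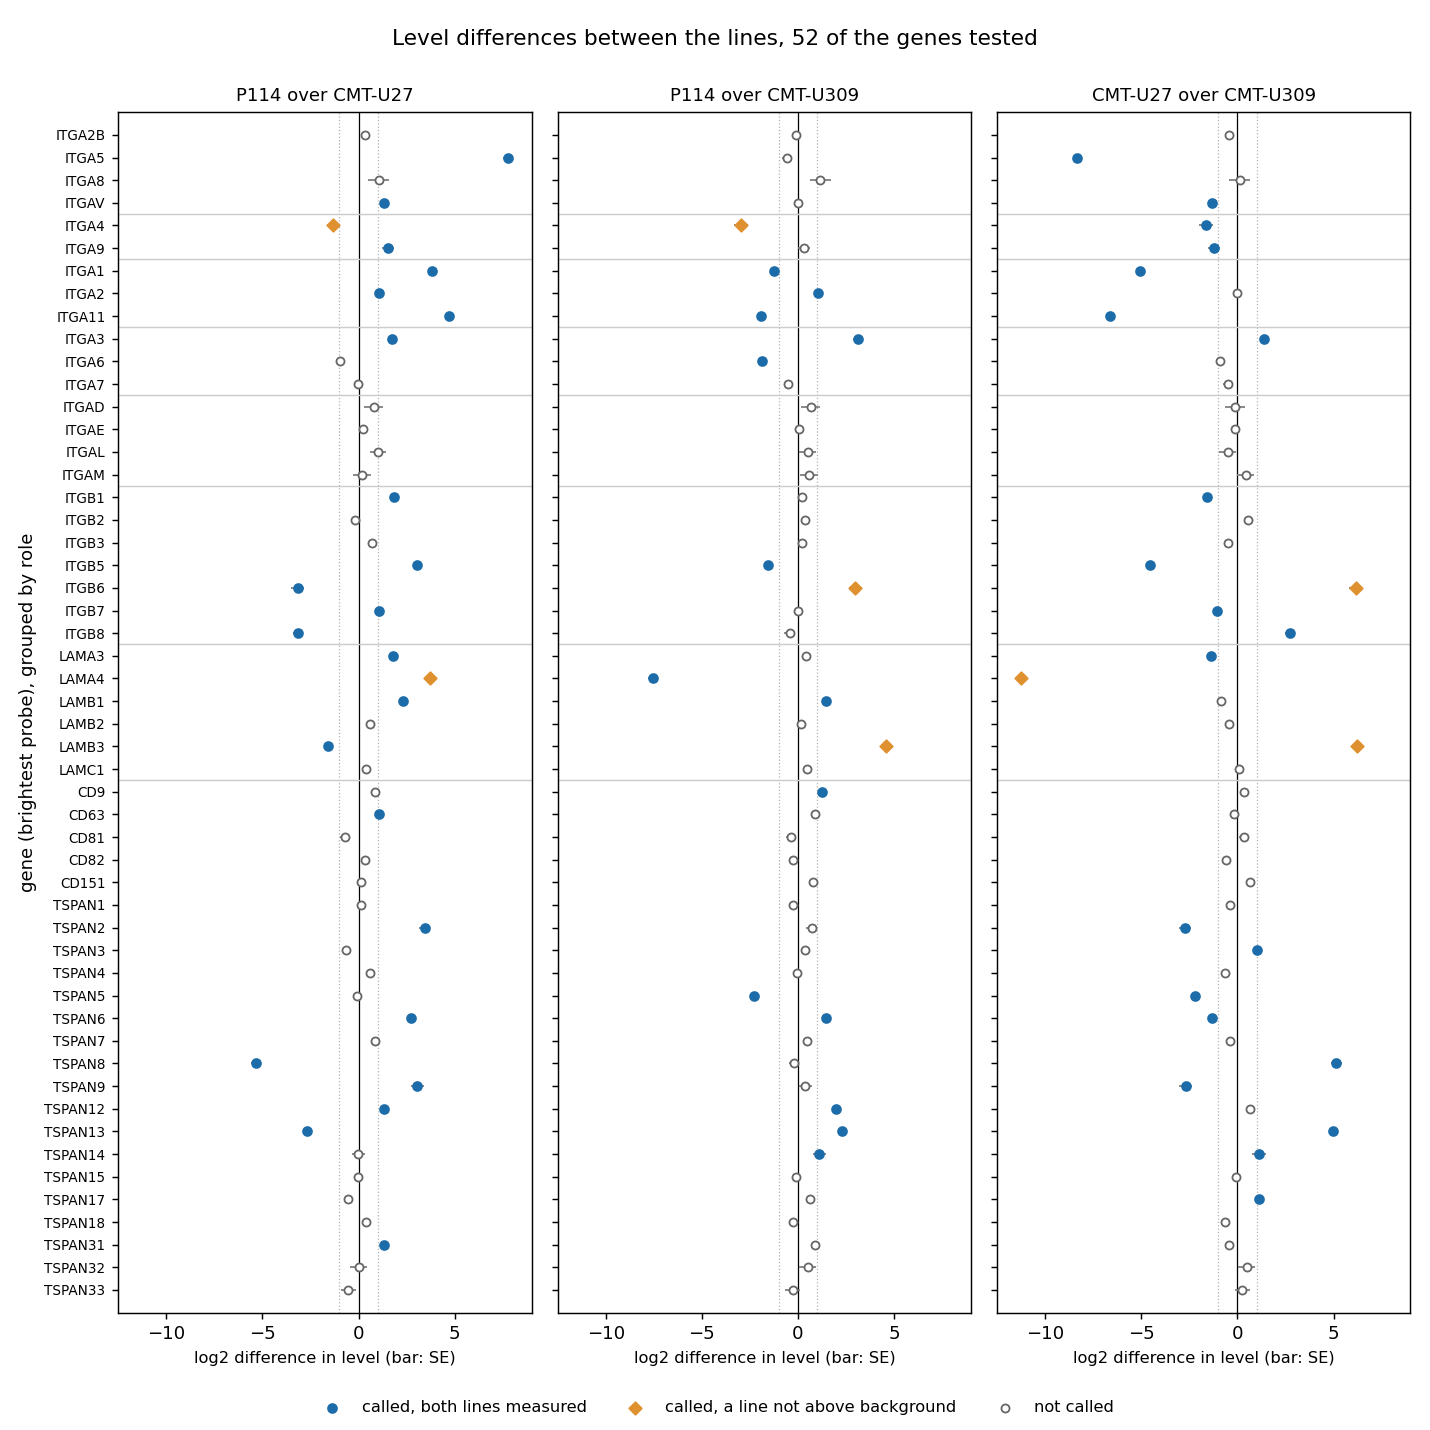
Log2 difference in level (x axis, bar for the SE) of the brightest probe of 52 of the genes tested, grouped by role, for each pair of lines; dotted lines mark 2-fold, filled points are called and orange diamonds have a line that was above background in 0 of 4 channels. Among genes measured in both lines, ITGA5 in CMT-U27 over CMT-U309 lies farthest from 0 (-8.33), and CD81, CD82 and CD151 are open points in each panel.

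Among the integrin chains that bind the RGD sequence of fibronectin and vitronectin, the alpha 5 chain ITGA5 separated CMT-U27 from the other lines. The ITGA5 log2 level was 11.90 in monoculture and 11.999 in co-culture of P114, 11.98 and 13.07 in CMT-U309, but 3.57 and 4.83 in CMT-U27. The ranges of CMT-U27 and the other lines did not overlap. The probe was above background in 11 of 12 channels, and the folds below rest on the low CMT-U27 signals. ITGA5 was 216-fold higher in P114 than in CMT-U27 (log2 difference 7.75 ± 0.24 SE; limma, adjusted p = 7.42e-09) and 321-fold lower in CMT-U27 than in CMT-U309 (-8.33 ± 0.24). Between P114 and CMT-U309 it did not pass the test, with -0.57 ± 0.24 (limma, adjusted p = 0.109).

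ITGAV, the alpha V chain of the vitronectin receptors, differed in the same places by less. Its levels were 13.58 and 13.62 in P114, 13.46 and 13.72 in CMT-U309, and 12.15 and 12.37 in CMT-U27. P114 exceeded CMT-U27 by 1.33 ± 0.13 (limma, adjusted p = 2.84e-05), and its second probe gave 1.65. ITGA2B, the platelet alpha IIb chain, was between 8.83 and 9.61 in all 6 samples and was not called in any pair of lines. ITGA8, an RGD-binding chain of mesenchyme, exceeded background in 0 of 12 channels.

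The beta chains that pair with these alpha chains went both ways. ITGB1, the beta 1 chain shared by most matrix receptors, had levels of 14.66 and 14.37 in P114, 14.33 and 14.24 in CMT-U309 and 12.72 and 12.67 in CMT-U27. It was 1.81 ± 0.14 higher in P114 than in CMT-U27 (limma, adjusted p = 3.70e-06) and 1.59 lower in CMT-U27 than in CMT-U309 (log2 difference -1.59 ± 0.14). ITGB5, the beta 5 partner of alpha V, gave a steeper order.

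ITGB5 levels were 15.65 and 15.22 in CMT-U309, 13.76 and 14.01 in P114 and 10.79 and 10.95 in CMT-U27, with no overlap between lines. CMT-U27 was 23.6-fold below CMT-U309 (-4.56 ± 0.17; limma, adjusted p = 2.35e-08) and P114 was 8.09-fold above CMT-U27. The 4 ITGB5 probes gave log2 differences between -4.78 and -4.24 for CMT-U27 over CMT-U309.

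ITGB6, the epithelial beta 6 chain, had the opposite order. Its levels were 8.01 and 7.81 in CMT-U27, 4.27 and 5.21 in P114 and 1.41 and 2.12 in CMT-U309, where it was above background in 0 of 4 channels. CMT-U27 was therefore at least 44.01-fold above CMT-U309 (limma, adjusted p = 2.85e-07), a bound set by the lowest signal above background, and also exceeded P114 (-3.17 ± 0.33 for P114 over CMT-U27). ITGB8, which with alpha V activates latent TGF-beta, was also highest in CMT-U27, at 8.30 and 7.88, beside 4.85 and 5.01 in P114 and 5.83 and 4.90 in CMT-U309. CMT-U27 exceeded P114 by 8.93-fold (-3.16 ± 0.27 for P114 over CMT-U27; limma, adjusted p = 9.59e-06) and CMT-U309 by 6.61-fold. Between P114 and CMT-U309 the genes parted, since ITGB6 was at least 5.22-fold higher in P114 and ITGB8 did not pass (-0.43 ± 0.27). ITGB3, the beta 3 partner of alpha V, was at 5.76 to 6.61 in the 6 samples and was not called.

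The collagen receptors showed the clearest line order among alpha chains. ITGA11, the alpha 11 chain of fibroblast collagen receptors, had levels of 11.51 and 11.99 in CMT-U309, 9.87 and 9.82 in P114 and 4.99 and 5.28 in CMT-U27. All 3 lines were separate from each other. The log2 difference was -6.62 ± 0.17 for CMT-U27 over CMT-U309 (98.1-fold; limma, adjusted p = 1.70e-09), 4.71 ± 0.17 for P114 over CMT-U27 and -1.90 ± 0.17 for P114 over CMT-U309.

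ITGA1, the alpha 1 chain that binds collagen IV and laminin, had the same order, with levels of 10.96 and 10.93, then 9.88 and 9.51, then 6.07 and 5.69. CMT-U27 was 33.4-fold below CMT-U309 (-5.06 ± 0.16; limma, adjusted p = 6.04e-09) and P114 was 2.38-fold below CMT-U309 (-1.25 ± 0.16). ITGA2, the alpha 2 chain of epithelial and platelet collagen receptors, departed from it. Its levels were 8.19 and 8.61 in P114, 7.18 and 7.52 in CMT-U27 and 7.08 and 7.67 in CMT-U309, and P114 was just over 2-fold above each of the others (1.05 and 1.02 ± 0.17). ITGA1 and ITGA2 are neighbors on chromosome 4, with 128.9 kb between their probes.

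Laminin receptors did not move as a set. ITGA3, the alpha 3 chain of the laminin-332 receptor, was highest in P114, at 8.55 and 8.74, beside 6.60 and 7.23 in CMT-U27 and 5.62 and 5.47 in CMT-U309. P114 over CMT-U309 was 3.098 ± 0.22 at this probe (limma, adjusted p = 4.88e-06) and 1.24 at the second ITGA3 probe. CMT-U27 over CMT-U309 was called at the brightest probe (1.37 ± 0.22) and was -0.04 at the second.

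ITGA6, the alpha 6 chain of hemidesmosomes, instead was highest in CMT-U309, with 13.28 and 13.13, beside 12.14 and 12.46 in CMT-U27 and 11.34 and 11.31 in P114. P114 was 3.67-fold below CMT-U309 (-1.88 ± 0.15; limma, adjusted p = 1.09e-05), and its 3 probes gave -1.88 to -1.78. The differences between CMT-U27 and each of the others passed the adjusted p but stayed just under 2-fold at the brightest probe (-0.97 for P114 over CMT-U27 and -0.91 for CMT-U27 over CMT-U309). At the other 2 probes CMT-U27 over CMT-U309 was called, the lowest being -1.32. The first difference was over 2-fold at the brightest probe without scaling (-1.44), with normexp (-1.001) and without the second P114 array (-1.09), and the second without scaling (-1.22), with quantile normalization (-1.30), with normexp (-1.09) and with the median of probes above background (-1.13). For ITGA7, the laminin receptor of muscle, levels lay between 5.36 and 5.96 and no pair was called. No probe carried the name ITGB4, the beta 4 partner of alpha 6, so the hemidesmosome integrin was read through its alpha chain only.

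Of the laminin chains, LAMA4 held the widest range of any member. LAMA4, the alpha 4 chain of laminins made by mesenchyme and endothelium, had levels of 14.47 and 14.05 in CMT-U309 and 6.74 and 6.66 in P114. In CMT-U27 it was above background in 0 of 4 channels. CMT-U309 was at least 2445-fold above CMT-U27 (limma, adjusted p = 9.83e-10) and 188-fold above P114 (-7.56 ± 0.25 for P114 over CMT-U309). The bound for P114 over CMT-U27 was 11.4-fold. The bounds from the other 2 LAMA4 probes for CMT-U309 over CMT-U27 were 1179-fold at the printed probe and 2693-fold. With normexp background correction, loess and Aquantile, P114 over CMT-U27 was 0.87, under 2-fold, and was no longer called. The 2445-fold bound equals the fold of the fit, and the bounds hold for the processed signals only.

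LAMA3 and LAMB3 are chains of laminin-332, the epithelial anchoring laminin, and they did not share an order. LAMB3, its beta 3 chain, had levels of 8.67 and 8.95 in CMT-U27, 7.08 and 7.34 in P114 and, in CMT-U309, 2.73 and 2.50 with 0 of 4 channels above background. CMT-U27 was at least 70.6-fold and P114 at least 24.2-fold above CMT-U309 at this first probe (limma, adjusted p = 1.69e-08 and 3.36e-07).

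P114 was 3.03-fold below CMT-U27 at the same probe (-1.60 ± 0.23; limma, adjusted p = 0.000297). With normexp, loess and Aquantile that difference was -0.91 and P114 over CMT-U309 was 0.99, so neither comparison of P114 was called. The 24.2-fold bound equals the fold of the fit and holds for the processed signals only.

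LAMA3, the alpha 3 chain, was lowest in the line where LAMB3 was highest. It stood at 10.04 and 9.93 in P114 and 9.53 and 9.60 in CMT-U309, but 8.04 and 8.32 in CMT-U27, 3.50-fold below P114 (1.81 ± 0.15 for P114 over CMT-U27; limma, adjusted p = 8.97e-06).

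Among the chains of the broadly expressed laminins, LAMB1 was highest in P114, with 14.22 and 14.56, beside 12.16 and 12.04 in CMT-U27 and 12.93 and 12.98 in CMT-U309. P114 exceeded CMT-U27 by 2.29 ± 0.15 (limma, adjusted p = 1.22e-06) and CMT-U309 by 1.44 ± 0.15. Over the 3 LAMB1 probes the first of these differences ran from 0.87 to 3.22 and the second from 0.12 to 1.55, and without scaling the second was 0.66 at the brightest probe. The brightest probes of LAMB2, the beta 2 chain, and LAMC1, the gamma 1 chain of most laminins, were not called in any pair of lines, with differences between -0.43 and 0.59. The other 2 LAMC1 probes were called for P114 over CMT-U309, by 1.42 and 1.52.

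**Figure D2:**
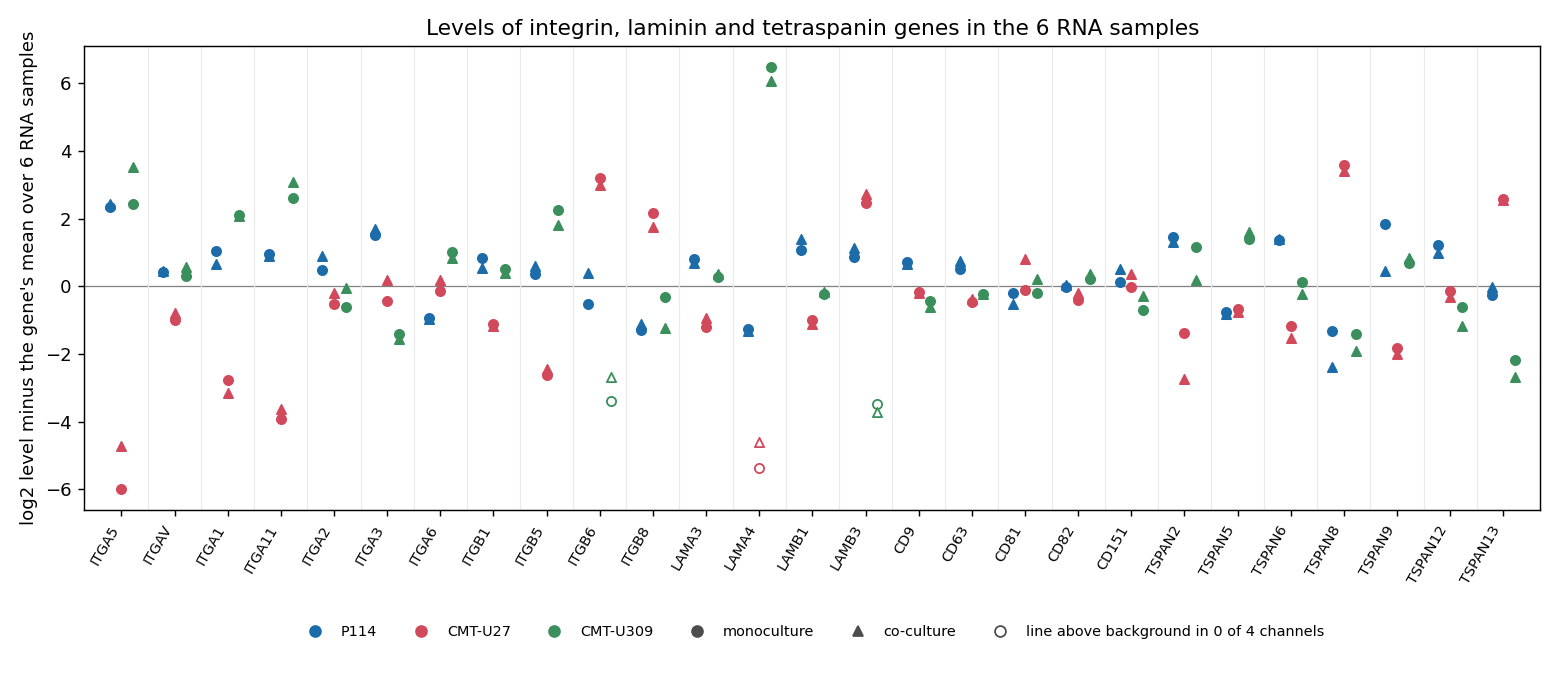
Log2 level of 27 genes in the 6 RNA samples, drawn as the difference from each gene's own mean (y axis); color marks the line, circles are monoculture, triangles co-culture, and open symbols a line above background in 0 of 4 channels. The circle and triangle of a line lie close together beside the distances between lines for ITGA11, ITGB5, LAMA4 and TSPAN13, and the 3 lines lie close together for CD82 and CD151.

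The 5 CD-numbered tetraspanins were detected in every channel, and at their brightest probes CD9 and CD63 were called in 1 pair of lines each and the others in 0. CD9, a partner of beta 1 integrins, had levels of 13.45 and 13.40 in P114, 12.56 and 12.54 in CMT-U27 and 12.29 and 12.11 in CMT-U309, and only P114 over CMT-U309 was called (1.23 ± 0.13; limma, adjusted p = 8.35e-05). Without scaling that difference was 0.45, and P114 over CMT-U27, 0.88 here, was called with quantile normalization (1.02) and with normexp, loess and Aquantile (1.03). CD63, the tetraspanin of late endosomes and exosomes, had 15.60 and 15.83 in P114, 14.61 and 14.72 in CMT-U27 and 14.84 and 14.87 in CMT-U309. P114 was 2.08-fold above CMT-U27 (1.06 ± 0.14; limma, adjusted p = 0.000208), which was under 2-fold with quantile normalization (0.999), with normexp, loess and Aquantile (0.997) and without scaling (0.59).

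CD151, the tetraspanin bound most firmly to alpha 3 and alpha 6 integrins, and CD82, known as a metastasis suppressor, were not called in any pair at their brightest probes. CD151 was 0.79 ± 0.13 higher in P114 than in CMT-U309 (limma, adjusted p = 0.00133), and 1.00 at its second probe, which was called. It was 1.30 without the second P114 array, over 2-fold. The CD82 differences lay between -0.58 and 0.31, and without scaling P114 over CMT-U309 was called (-1.05). CD81, a tetraspanin of exosomes and of the B-cell coreceptor, gave -0.71, -0.39 and 0.32 for the 3 pairs and was not called, although without scaling P114 was below CMT-U27 and CMT-U309 by over 2-fold (-1.18 and -1.16).

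Larger differences were found among the numbered tetraspanins, in genes of different lines. TSPAN8, a tetraspanin of digestive and carcinoma epithelium, had levels of 9.37 and 9.17 in CMT-U27, 4.46 and 3.39 in P114 and 4.38 and 3.87 in CMT-U309. CMT-U27 was 40.6-fold above P114 (-5.34 ± 0.26 for P114 over CMT-U27; limma, adjusted p = 1.67e-07) and 35.5-fold above CMT-U309 (5.15 ± 0.26). This probe was above background in 9 of 12 channels, and both folds rest on low signals in P114 and CMT-U309. At the second TSPAN8 probe P114 was above background in 0 of 4 channels and CMT-U27 was at least 145-fold higher.

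TSPAN13, also highest in CMT-U27, had levels of 12.02 and 11.98, beside 9.18 and 9.41 in P114 and 7.26 and 6.75 in CMT-U309, and the lines were all separate. The difference was 5.00 ± 0.18 for CMT-U27 over CMT-U309 (31.9-fold; limma, adjusted p = 1.75e-08) and 4.61 and 5.24 at its other probes. P114 over CMT-U27 was -2.71 ± 0.18.

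TSPAN2 and TSPAN9 were lowest in CMT-U27. TSPAN2 had 7.29 and 7.15 in P114, 6.99 and 6.04 in CMT-U309 and 4.47 and 3.11 in CMT-U27, where 2 of 4 channels were above background. P114 over CMT-U27 was 3.44 ± 0.30 (limma, adjusted p = 9.70e-06) and was 0.92 with normexp, loess and Aquantile. TSPAN9 was at 7.82 and 6.45, 6.69 and 6.83, and 4.18 and 3.98 in the same order of lines, a difference of 3.05 ± 0.33 between P114 and CMT-U27.

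P114 held the highest levels of TSPAN6 and TSPAN12. TSPAN6 had 13.97 and 13.98 in P114, 12.73 and 12.37 in CMT-U309 and 11.41 and 11.06 in CMT-U27, and its second probe gave nearly equal differences (2.77 beside 2.74 for P114 over CMT-U27). TSPAN12, which assists Norrin signaling at Frizzled 4, had 12.14 and 11.91 in P114, 10.80 and 10.62 in CMT-U27 and 10.33 and 9.75 in CMT-U309. P114 over CMT-U309 was 1.99 ± 0.15 for TSPAN12 (limma, adjusted p = 6.28e-06).

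TSPAN5, which guides the protease ADAM10, was the only tetraspanin called at its brightest probe as higher in CMT-U309 than in both other lines. Its levels were 9.40 and 9.58 in CMT-U309, 7.22 and 7.17 in P114 and 7.30 and 7.24 in CMT-U27. P114 and CMT-U27 were each below CMT-U309 (-2.29 and -2.22 ± 0.17), and they did not pass the test against each other (-0.07). Its other probes gave -1.94 and -2.30 for P114 over CMT-U309. TSPAN3, at 14.78 and 14.67 in CMT-U27 and 13.70 and 13.74 in CMT-U309, and TSPAN17, at 8.40 and 8.52 beside 7.34 and 7.29, were each called as higher in CMT-U27 by little over 2-fold. TSPAN31 was called for P114 over CMT-U27 only (10.41 and 10.21 beside 9.06 and 8.93). TSPAN1, TSPAN4, TSPAN15 and TSPAN18 were above background in all channels and not called in any pair.

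Of the alpha chains known from leukocytes, 4 were tested and 0 were called in any pair of lines, while ITGA4 and ITGB7, which leukocytes also use, were called. ITGAM encodes CD11b, a marker by which the MDSCs were sorted, and none of its 4 probes was above background in any of the 12 channels. ITGAD, the alpha D chain, was likewise above background in 0 channels and ITGAL, the alpha chain of LFA-1, in 1 channel of CMT-U309. ITGB2, the beta 2 chain of all these receptors, was above background in all 12 channels at levels between 5.78 and 6.38 and was not called. ITGAE, the alpha E chain that binds E-cadherin, lay between 7.53 and 8.38. No probe carried the name ITGAX.

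ITGA9, the chain most like alpha 4, had levels of 6.48 and 7.14 in P114, 6.57 and 6.43 in CMT-U309 and 5.66 and 4.88 in CMT-U27. CMT-U27 was lower than both others (1.54 for P114 over CMT-U27; limma, adjusted p = 0.00282; -1.23 for CMT-U27 over CMT-U309).

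ITGA4, the alpha 4 chain of lymphocyte and mesenchymal VCAM-1 receptors, had levels of 5.32 and 5.11 in CMT-U309, 3.38 and 3.76 in CMT-U27 and 2.33 and 2.19 in P114, where 0 of 4 channels were above background. CMT-U309 was at least 4.15-fold above P114 (limma, adjusted p = 0.000191). The bound for CMT-U27 over P114 was 1.33-fold, and that call was lost with the replicate block, without the second P114 array and without the first CMT-U309 array, and its sign turned without the second CMT-U27 array. CMT-U27 over CMT-U309 went from -1.65 to 0.044 without the first CMT-U27 array. With normexp, loess and Aquantile, P114 over CMT-U309 was -0.44, P114 over CMT-U27 -0.27 and CMT-U27 over CMT-U309 -0.16. No pair was called for ITGA4 in that setting. ITGB7, the beta 7 partner of alpha 4 and alpha E, had 8.06 and 8.18 in P114, 8.08 and 8.15 in CMT-U309 and 6.78 and 7.35 in CMT-U27. P114 was 2.08-fold above CMT-U27 (1.06 ± 0.19; limma, adjusted p = 0.00124). That fold went under 2 without the first CMT-U27 array (0.98), without scaling (0.59) and with normexp, loess and Aquantile (0.63). CMT-U27 was 2.07-fold below CMT-U309. This fold went under 2 with normexp (-0.80), without the first CMT-U27 array (-0.97) and without the first CMT-U309 array (-0.93).

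Myeloid markers were read beside these chains. Of 16 found by symbol, 13 were above background in at least 1 channel and ITGAM, LYZ and SPI1 in 0. None passed the thresholds for co-culture. At unadjusted p under 0.05 alone 0 were higher and 1, CSF3R, was lower, beside 5.81% and 4.12% of all probes. Their summed signal ran from 1684 to 8216 in the monoculture channels and from 1620 to 13783 in the co-culture channels, and in CMT-U27 it was 7913 to 8216 in monoculture and 13725 to 13783 in co-culture. In that line the log2 level of S100A8, a calcium-binding protein of neutrophils that some epithelia also make, was 12.64 in monoculture and 13.49 in co-culture. S100A8 was the brightest of the 16 markers in CMT-U27, so it weighs most in that sum. Ratios of other markers in CMT-U27 went both ways, with 0.80 for S100A9 and -0.29 for CYBB. The part of MDSC RNA in the ratios was not tested.

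Several probes of a gene usually gave the same call, with exceptions that change what can be said of a gene. Of 23 genes with more than 1 probe, all probes gave the same call in 18 genes for P114 over CMT-U27, 16 for P114 over CMT-U309 and 19 for CMT-U27 over CMT-U309, and opposite calls occurred in 0. The widest disagreement was in TSPAN7, a tetraspanin of neurons and lymphoid leukemia. Its brighter probe read 11.05 and 10.82 in P114 and 9.81 and 10.40 in CMT-U27 (0.83 ± 0.20). Its second probe, 23.6 kb further along chromosome X, read 6.11 and 6.01 in P114 and 10.94 and 10.696 in CMT-U27 (-4.76 ± 0.15; limma, adjusted p = 8.53e-09). The direction of TSPAN7 between these lines thus turned with the probe.

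In LAMB3, whose 3 probes are printed above, the sign was the same at each probe for CMT-U27 over CMT-U309 and the size was not. At the first probe, at the end of the reading frame, CMT-U27 was at least 70.6-fold above CMT-U309. The middle probe gave 1.16 ± 0.34 and was called, and the dimmest gave 0.60 ± 0.36 (limma, adjusted p = 0.202) with 6 of 12 channels above background.

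**Figure D3:**
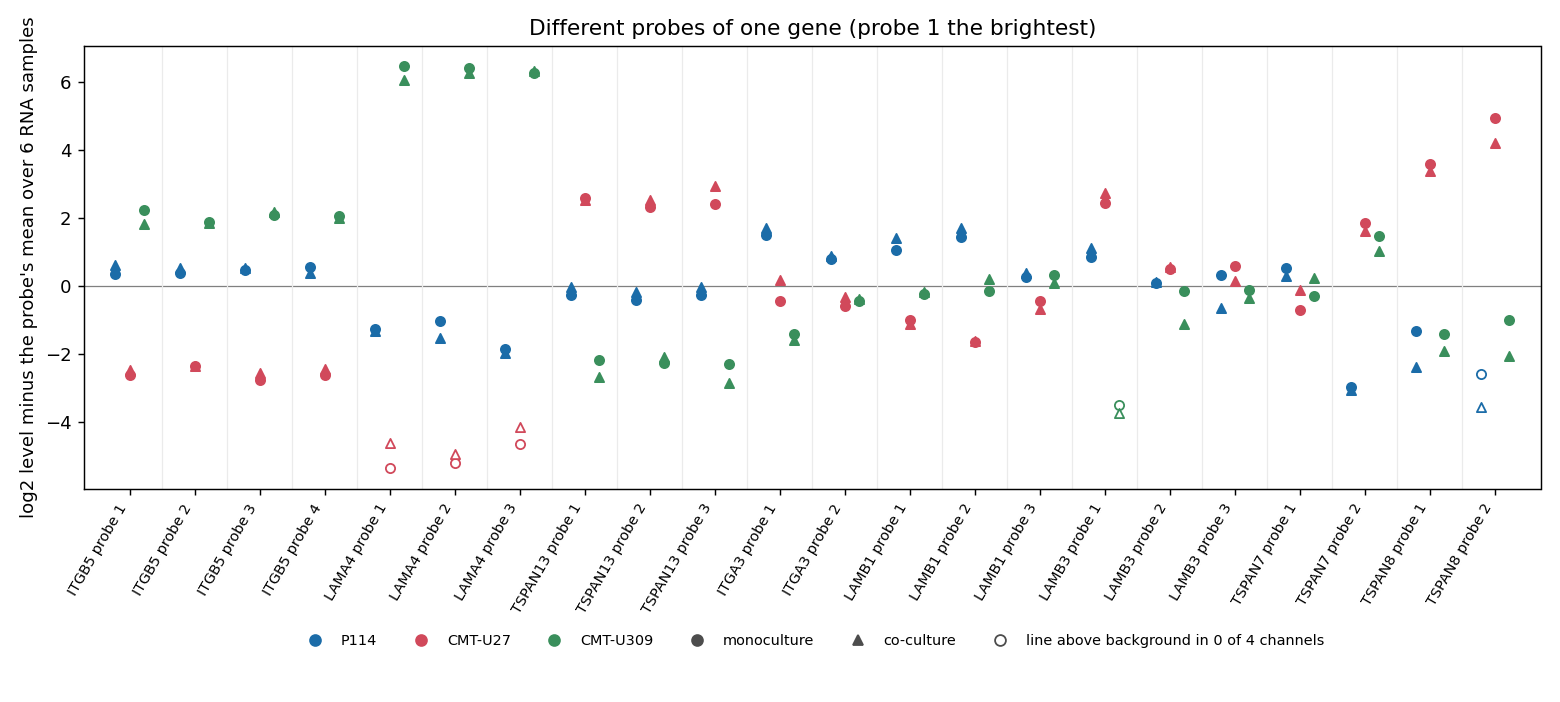
Log2 level at each probe of 8 genes in the 6 RNA samples, drawn as the difference from the probe's own mean (y axis), with probe 1 the brightest; colors, shapes and open symbols are those of the plot of levels by line. The 4 ITGB5 probes repeat a single pattern, whereas TSPAN7 probe 2 sets P114 below the other lines (6.11 and 6.01) and probe 1 does not.

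Genes that serve these receptors were read from a list of adaptors and partners. Of 23 integrin adaptors and regulators found by symbol, 8 were higher and 2 lower in P114 than in CMT-U27, 1 and 3 in P114 against CMT-U309, and 1 and 6 in CMT-U27 against CMT-U309. The shares of all probes called in either direction were 24.2%, 14.5% and 28.9% for these pairs. The genes named here were chosen after their values were seen. PARVB, the beta parvin that links integrin-linked kinase to actin, had levels of 8.47 and 8.20 in P114, 7.10 and 7.31 in CMT-U309 and 3.69 and 3.66 in CMT-U27, where 2 of 4 channels were above background. APBB1IP, the Rap1 effector RIAM that brings talin to integrins, had 7.84 and 8.43 in CMT-U309 and stayed between 1.93 and 4.16 in the other lines. It was above background in 0 of 4 channels of P114 and 1 of 4 of CMT-U27.

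Of 10 hemidesmosome and basement membrane partners, 3 were higher and 1 lower in P114 than in CMT-U27, 1 and 3 against CMT-U309, and 1 and 5 in CMT-U27 against CMT-U309. PLEC, the plectin that ties alpha 6 beta 4 to keratin, was 2.31 higher in P114 than in CMT-U27, and HSPG2, the basement membrane proteoglycan perlecan, 3.24 higher. HSPG2 was above background in 1 of 4 channels of CMT-U27. Of 9 tetraspanin partners and relatives the counts were 1 and 2, 1 and 2, and 1 and 1. Both lists stand beside 24.2%, 14.5% and 28.9% of all probes called in either direction.

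Ratios of co-culture over monoculture were small beside the distances between lines. The median absolute log2 ratio over the 87 member probes was 0.15, beside median absolute level differences of 1.04, 0.83 and 1.13 between the lines. With the methods' thresholds (a fold over 2 at an unadjusted p under 0.05), 1 of 87 member probes was higher and 0 lower, beside 1.03% and 0.191% of all probes tested, or 1.22% in either direction. The probe was ITGAD, whose ratio of 1.00 ± 0.41 came from signals that were above background in 0 of 12 channels, so no fold is given. At unadjusted p under 0.05 alone, 5 member probes were higher and 6 lower, beside 5.81% and 4.12% of all probes and 9.94% in either direction. No member passed an adjusted p of 0.05 in limma, the lowest being 0.498, and all probes together gave 0 such calls. The median member ratio was 0.07.

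**Figure D4:**
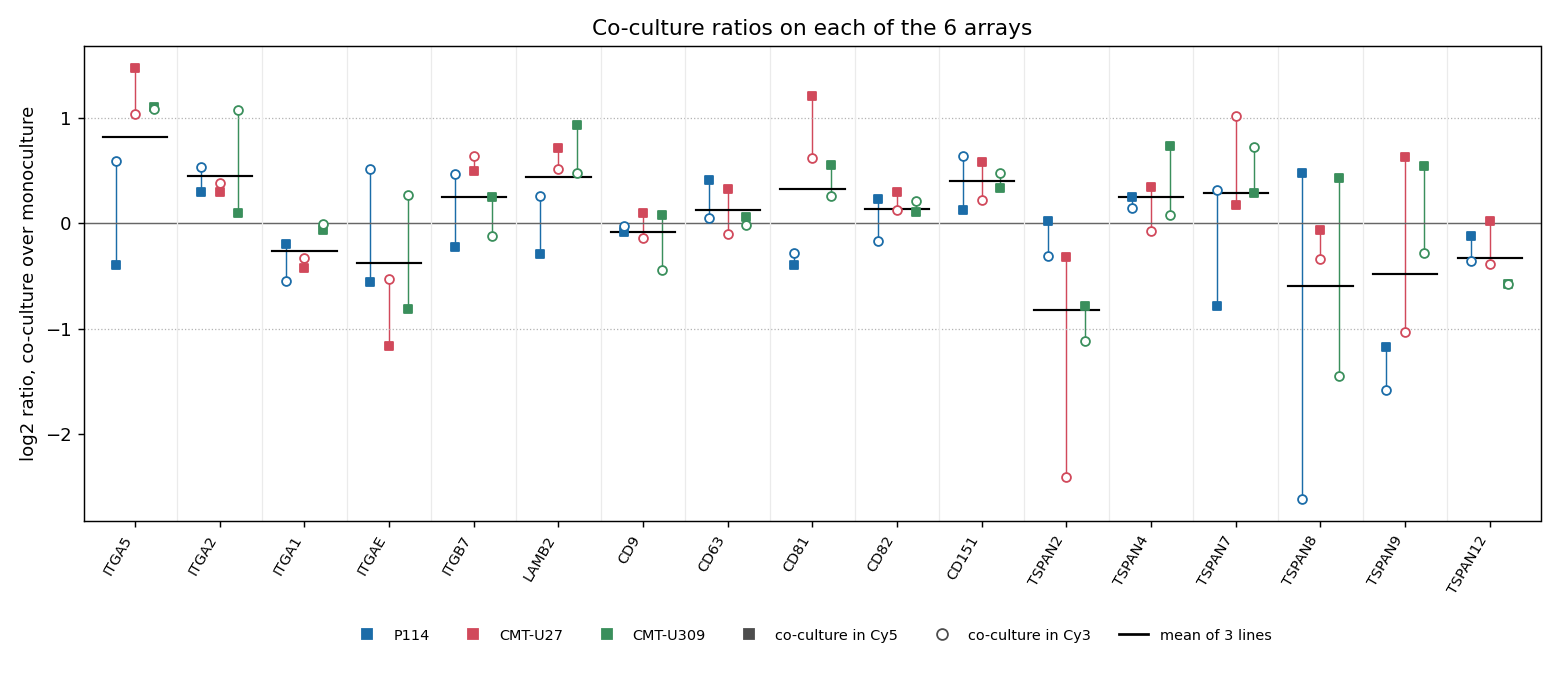
Log2 ratio of co-culture over monoculture (y axis) on each of the 6 arrays for 17 genes; squares have co-culture RNA in Cy5, open circles in Cy3, a thin line joins the dye-swap of a line, and the black bar is the mean of 3 lines. CD151 and ITGA2 lie above 0 on all 6 arrays, CD81 lies below 0 on both P114 arrays and above 0 on the other 4, and most dye-swap pairs are farther apart than the mean is from 0.

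For the 34 genes detected in every channel, mean ratios over the 3 lines lay between -0.38 and 0.45, with a median SE of 0.13. ITGA2, the alpha 2 collagen receptor chain, had the highest. Its array ratios were 0.30 and 0.53 in P114, 0.30 and 0.38 in CMT-U27 and 0.10 and 1.07 in CMT-U309, all above 0, with a mean of 0.45 ± 0.14 SE (n = 3 lines; limma, unadjusted p = 0.0095, adjusted p = 0.498). CD151 was also above 0 on 6 of 6 arrays, at 0.13 and 0.64, 0.59 and 0.22, and 0.34 and 0.48, with a mean of 0.40 ± 0.11 (limma, unadjusted p = 0.00391, adjusted p = 0.498). Its second probe gave 0.25 and was above 0 on 5 arrays.

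LAMB2, the laminin beta 2 chain, showed how far probes and arrays can part. Its brightest probe gave -0.29 and 0.26 in P114, 0.72 and 0.51 in CMT-U27 and 0.94 and 0.48 in CMT-U309, a mean of 0.44 ± 0.15. Its other probes gave -0.63 and 0.12. TSPAN12 was below 0 on 5 of 6 arrays (mean -0.33 ± 0.12), ITGA1 on 6 of 6 (-0.26 ± 0.13) and ITGAE on 4 of 6 (-0.38 ± 0.17). ITGB7 and TSPAN4 had means of 0.25, and TSPAN7 had 0.29 at its brighter and -0.26 at its second probe.

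CD81 did not move alike in the lines. The ratios were -0.39 and -0.28 in P114, 1.21 and 0.62 in CMT-U27, and 0.55 and 0.26 in CMT-U309, so the arrays of P114 and of the other lines did not overlap. The mean of 0.33 ± 0.20 did not pass (limma, adjusted p = 0.55). CD9, CD63 and CD82 had means of -0.09, 0.12 and 0.14, each with SE between 0.11 and 0.12.

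The hemidesmosome chains were near 0 in co-culture at their brightest probes. LAMA3 had a mean ratio of 0.08 ± 0.13, LAMB3 0.10 ± 0.19 and ITGA6 0.04 ± 0.12. The dimmest and the middle LAMB3 probe were 1.47-fold and 1.23-fold lower in co-culture, and neither passed the thresholds.

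Some genes with larger ratios were not above background in every channel and were named after their values were seen. ITGA5 gave -0.40 and 0.60 in P114, 1.48 and 1.04 in CMT-U27, and 1.102 and 1.088 in CMT-U309, a mean of 0.82 ± 0.20 (limma, unadjusted p = 0.00228, adjusted p = 0.498). Both lines other than P114 were over 2-fold on both arrays, and without P114 the mean was 1.18. TSPAN2 gave 0.02 and -0.31, -0.32 and -2.41, and -0.79 and -1.12, a mean of -0.82 ± 0.24, or -1.16 without P114. TSPAN8 was below 0 on 6 of 6 arrays at its second probe (-0.92 ± 0.19; limma, unadjusted p = 0.000729, adjusted p = 0.498) but on 4 of 6 at its brightest (-0.59 ± 0.22).

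Without P114, 4 member probes passed the thresholds, those of ITGA5, ITGA8, ITGAD and TSPAN2. Over all probes, 5.15% were higher and 1.4% lower in that setting. Of the 4, ITGA8 and ITGAD were above background in 0 channels. Without the first P114 array alone, 4 probes passed as well, for ITGAD, ITGAM, LAMB3 at its dimmest probe (-1.12) and TSPAN8 at its brightest (-1.11), beside 4.52% higher and 1.72% lower of all probes. Without CMT-U27, only the second TSPAN8 probe passed (-1.02), beside 0.225% lower of all probes, and without CMT-U309 none did.

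Within single lines the dye-swap is the only check. Both arrays of a line were over 2-fold in the same direction for TSPAN9 in P114 (lower, -1.17 and -1.58), beside 0.487% of all probes in that direction. In CMT-U27 this held for ITGA5, ITGAD and an ITGAM probe, 3 of 87 probes beside 3.45% of all probes. In CMT-U309 it held for ITGA5, 1 of 86 probes beside 0.675%. Both arrays of P114 were above 0 for 25 member probes and below 0 for 19, beside 19.9% and 18.7% of all probes. In CMT-U27 these counts were 35 and 21, beside 33.1% and 29.6%, and in CMT-U309 31 and 16 of 86, beside 29.0% and 23.0%. Over the 34 genes detected throughout, the arrays of a dye-swap correlated at -0.26 for P114, 0.59 for CMT-U27 and 0.15 for CMT-U309, as a description of genes that share their arrays.

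Of the 23 integrin adaptors and regulators, 1 passed the thresholds in co-culture and 8 had unadjusted p under 0.05, all higher, beside 1.03% and 5.81% of all probes in that direction. ZYX, the zyxin of focal adhesions, was the gene past the thresholds, with -1.22 and 1.59 in P114, 1.67 and 2.20 in CMT-U27 and 1.38 and 1.99 in CMT-U309, a mean of 1.27. ACTN1, the alpha-actinin that crosslinks actin at adhesions, had -0.75 and 0.46, 1.36 and 1.45, and 1.30 and 1.63, a mean of 0.91. ILK, the integrin-linked kinase, had a mean of 0.67. In all 3 genes, P114 gave opposite signs on its arrays and the other lines were above 0 on all 4. Of the 10 hemidesmosome and basement membrane partners 3 were higher and 1 lower at unadjusted p under 0.05, and of the 9 tetraspanin partners 2 and 0. The shares of all probes were 5.81% higher and 4.12% lower.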

How the data were processed

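The scanner output of 6 arrays was used. The authors deposited processed signal intensity values for both dyes, made by Agilent Feature Extraction (10.10.1.1 per the file headers, 10.7.3.1 in the submitters' processing notes) with background subtraction and dye normalization. They also deposited log10 ratios, which were read as an alternative. Coordinates are canFam2, from the file headers. Samples were grouped by the labels' cell line, treatment and dye.

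Outlier spots were left out, channels were brought to the same median, spots of a probe were averaged on the log2 scale, and only probes whose highest intensity exceeded 10 were kept. The co-culture ratio was averaged over the dye-swap and the 3 lines were tested against 0 with limma 3.58.1 (R 4.3.3, lmFit and eBayes with trend). Levels used the 6 RNA samples, each the mean of its Cy3 and Cy5 channels, with line and condition as terms. Adjusted p is Benjamini-Hochberg over all probes tested. The tests were checked on simulated data. Bounds were computed after Aquantile on the processed signals, which the scanner software had already adjusted for dye, and on the scale of the fit, and the lower is given, a choice made after seeing the values. They take the higher of the dim probe's signal and the lowest signal above background. Each bound therefore holds for these signals and is not a minimum under another background correction. Alternatives were other scalings, filters and background correction (normexp with offset 50 and loess), tests and left-out arrays. The number of arrays limits precision.

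Replicate numbers mark the dye. Deviations of ratios correlated between same-numbered arrays (0.36, 0.58 and 0.48), so the numbers paired arrays by dye, and the block was fitted as an alternative. Members and lists were chosen with earlier results of these data known. Genes were represented by their brightest probe. Full values are given for up to 10 called genes per pair of lines that were above background in all 4 channels of the higher line, for members past the co-culture thresholds and the 10 largest ratios among genes in all 12 channels, and for the hemidesmosome, CD-numbered and leukocyte lists. The values of 1 member gene are not reported here, though it stays in the counts. All 54 symbols were found in the RefSeq gene table (names only, since its assembly differs). Plots were drawn with matplotlib 3.10.9.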

Additional observations from a re-analysis of the deposited data

Results flagged for a closer look

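The co-culture ratio of CD81 had opposite signs in different lines. Both P114 arrays were below 0 (-0.39 and -0.28) and both CMT-U27 arrays above it (1.21 and 0.62), a difference of -1.25 between the line means on the log2 scale. Against CMT-U309, whose arrays gave 0.55 and 0.26, the difference was -0.74. These differences between lines were not tested, since a line has 1 pair of RNA samples. CD81 was well above background in all 12 channels.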

How the results depend on the processing

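The counts of member probes called between lines stayed within 1.5 times of 43, 39 and 46 under all alternatives run, except that P114 over CMT-U309 gave 25 calls with normexp, loess and Aquantile (9 higher and 16 lower, beside 21 and 18). Of all probes, 1.96% were then higher and 2.94% lower in that pair. The calls were not all of the same probes. With normexp, loess and Aquantile 29 of 43, 25 of 39 and 31 of 46 kept their call, and without scaling 34, 26 and 40. All kept their direction in these settings. The split of higher and lower calls for CMT-U27 over CMT-U309 was 18 and 28, and 9 and 24 with normexp, 12 and 31 without scaling, and 12 and 30 with scaling to the median of probes above background. In the same order, the shares of all probes were 15.7% and 13.3%, 5.05% and 5.35%, 10.4% and 19.9%, and 11.5% and 17.7%. For P114 over CMT-U27 the split was 31 and 12, and 22 and 18 without scaling, beside 11.6% and 12.6%, then 5.88% and 22.1%, of all probes. With single arrays left out, ITGA4 ranged from -3.002 to 0.38 for P114 over CMT-U27 and from -3.34 to 0.044 for CMT-U27 over CMT-U309, with the turned signs at the second and the first CMT-U27 array, P114 being above background in 0 channels, and the cause was not tested. The single co-culture call was 0 with normexp and loess, without scaling, with the deposited ratios, with probes above background only, with the methods' t-test and with 6 arrays and no replicate block. It was 0 to 4 when a line or an array was left out. With the replicate block (6 arrays, dye as a block) the count was 1 again, and for levels, whose same-numbered arrays deviated together at 0.006, -0.16 and 0.32, the block gave 41, 38 and 45 calls. The higher and lower shares of all probes were then 11.2% and 12.4%, 7.47% and 6.73%, and 15.4% and 12.8%. The block changed the call of ITGA4 in P114 over CMT-U27 and no other named gene. Probes above background in no channel of a line limit what can be said to bounds.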
